A study of Mus musculus with 11 samples.

Results

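The Hippo pathway effectors Yap1, Wwtr1 (TAZ), Tead1, Tead2 and Tead4, the TEAD cofactor Vgll3 and the YAP target genes Ccn1 (Cyr61), Ccn2 (Ctgf), Ankrd1 and Amotl2 were measured in mouse otospheres, cochlear sensory epithelium (CSE) and embryonic stem cells (ESCs). These 10 genes were chosen by name with earlier results of these data known, and every probe that carried one of these names was taken. The paper already lists Vgll3 among its top transcription factors high in otospheres alone. Counts of the 10 genes beside the share of all genes thus describe this set and are no independent test. They were represented by 13 probes, of 55681 on the array and 26762 with a gene name, and all 13 passed the filter on dim probes. Tead1 had 3 probes and Tead2 had 2, of which the brightest was used as the main one.

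Single cells from the inner ear of newborn mice, cultured without attachment, can give rise to round cell clusters called otospheres, which the study set beside their source tissue and pluripotent cells. CSE came from ICR mice at postnatal day 1, with 10 mice (20 cochleae) pooled per preparation, and otospheres were grown from such CSE in serum-free medium with bFGF (10 ng/ml), IGF1 (50 ng/ml) and heparan sulfate (50 ng/ml). Secondary solid otospheres were collected at passage 1, with 4 to 5 days in culture on either side of the passage. The ESC group held 1 array each of the lines G4-2 (ES1) and D3 (ES2), both at passage 13 and kept with LIF without feeder cells and with no strain given. No group carried a stated genetic change. Total RNA labelled with Cy3 was hybridized to 11 single-colour arrays, 6 of otospheres (OS1 to OS6), 3 of CSE and 2 of ESCs. The arrays lay on 2 slides, which held ES1, OS1 to OS3, CSE1 and CSE2 on slide 1 and ES2, OS4 to OS6 and CSE3 on slide 2, so that ESC line and slide cannot be told apart. OS1 and OS2 differed by about as much as spots of the same probe (0.966 to 1.08 times that spread, depending on brightness) and OS4 and OS5 by less (0.44 to 0.473 times), whereas the other 17 pairs within a group differed by at least 1.64 times. Each of these pairs was averaged and counted as 1 sample (OS1+2 and OS4+5), which left 4 otosphere, 3 CSE and 2 ESC samples. The scanner had marked 55.1% to 71.6% of spots per array as well above background, none was saturated, and the number of arrays limits the precision. By their markers, the ESCs had a mean log2 signal of 13.04 to 13.69 over 6 pluripotency genes, against 6.62 to 7.17 in otospheres and 6.83 to 6.91 in CSE. For Nanog the brightest probe was taken, as for every gene, and it ran the other way. Its signals were 8.50 and 8.26 in ESCs, against means of 9.82 in otospheres and 10.03 in CSE. The paper, which added ESC arrays from other studies, lists Nanog as high in ESCs alone. This probe thus does not settle the level of the gene. Mean signals over 8 supporting cell genes were 12.17 to 12.40 in CSE and 9.64 to 10.47 in otospheres, and over 8 hair cell genes 10.04 to 10.53 and 7.18 to 9.48. In such bulk samples, fewer cells of a type and less RNA per cell cannot be told apart.

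In the Hippo pathway, MST kinases activate the LATS kinases, which phosphorylate the coactivators YAP and TAZ and keep them out of the nucleus. When the kinases are inactive, as in cells that spread, stretch or grow at low density, YAP and TAZ enter the nucleus and bind the TEAD proteins, which carry the DNA-binding domain and recognize the sequence GGAATG. Genes of secreted matrix-associated proteins such as Ccn1 and Ccn2, the ankyrin repeat gene Ankrd1 and the YAP-binding angiomotin family member Amotl2 are well-known targets, and in the inner ear the pathway is known for its part in the growth of the sensory epithelium. The arrays measure RNA, whereas the pathway is mainly regulated by phosphorylation and localization of its proteins, which were not measured.

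The bases before the start site are shown for Vgll3 and for the targets with a promoter entry (Ankrd1, Ccn1 and Amotl2). In capitals is the TEAD recognition sequence (GGAATG or its reverse complement CATTCC), which all of them hold. Of these genes, Ccn1 and Amotl2 passed the test between no groups. A link between the sequence and the levels was not tested. Sequences are from RefSeq (GRCm38.p6), written 5′ to 3′ on the gene's strand, 250 bases up to the start site. Promoter entries matched 7 of the 10 genes (not Tead1, Tead4 and Ccn2). They were chr19:36119845-36120094 (minus strand) for Ankrd1, chr3:145649986-145650235 (minus strand) for Ccn1, chr16:65814939-65815188 (plus strand) for Vgll3 and chr9:102717554-102717803 (plus strand) for Amotl2.
Ankrd1: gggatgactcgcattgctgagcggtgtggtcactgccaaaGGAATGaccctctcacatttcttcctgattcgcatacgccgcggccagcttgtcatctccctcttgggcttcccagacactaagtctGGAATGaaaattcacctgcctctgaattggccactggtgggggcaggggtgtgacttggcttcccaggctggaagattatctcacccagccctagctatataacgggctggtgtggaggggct
Ccn1: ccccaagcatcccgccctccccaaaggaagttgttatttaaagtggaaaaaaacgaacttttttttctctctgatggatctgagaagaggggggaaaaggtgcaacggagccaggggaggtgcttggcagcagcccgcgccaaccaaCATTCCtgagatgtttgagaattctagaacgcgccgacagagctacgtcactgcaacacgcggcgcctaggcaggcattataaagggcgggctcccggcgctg
Vgll3: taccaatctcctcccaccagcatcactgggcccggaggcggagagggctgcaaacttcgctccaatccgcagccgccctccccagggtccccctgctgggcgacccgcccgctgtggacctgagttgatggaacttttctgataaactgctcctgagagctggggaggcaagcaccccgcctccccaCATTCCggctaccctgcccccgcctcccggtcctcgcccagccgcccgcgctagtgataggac
Amotl2: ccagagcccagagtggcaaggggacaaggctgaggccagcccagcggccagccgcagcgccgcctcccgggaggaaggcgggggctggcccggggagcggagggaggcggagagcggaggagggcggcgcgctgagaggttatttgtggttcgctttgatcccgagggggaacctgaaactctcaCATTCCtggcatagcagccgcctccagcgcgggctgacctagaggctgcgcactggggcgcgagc

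The hexamer, searched on both strands, lay 210 and 123 bases before the start site in Ankrd1, 103 in Ccn1, 63 in Vgll3 and 65 in Amotl2. Yap1 also held it, at 141 bases, and so did both Wwtr1 windows, while the window of Tead2 did not. Of the 7 genes, 6 held it, against 14.4% of 27025 genes and 12.6% of 32851 windows of the same length. A match describes the letters of the window and does not show that a TEAD protein binds there.

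Between otospheres and CSE, the targets Ankrd1 and Ccn2, the cofactor Vgll3 and the DNA-binding partner Tead4 differed, whereas the coactivators Yap1 and Wwtr1 did not pass the test. These 4 of the 10 genes were higher in otospheres, where 7.17% of the 18565 genes tested were higher by the same rule (limma, adjusted p under 0.05). No member was lower by that rule (10.3% of all genes were). At limma's unadjusted p under 0.05, 6 members were higher, these 4 with Ccn1 and Amotl2, and 2, Yap1 and Tead2, were lower. The share of all genes at the unadjusted threshold was not computed. Every otosphere sample lay above every CSE sample for 5 members, these 4 and Amotl2 (14.1% of all genes), and below for 1, Yap1 (18.9% of all genes). The median difference was 1.21 on the log2 scale over the 10 members and -0.00717 over all genes. The count of 4 was not stable when samples were left out. It was 1, Ankrd1 alone, without CSE1, and 2 without OS4+5, OS6 or CSE2. It was also 2 with the replicate number as a block. That fit took the arrays numbered 1 to 3 alone, each as a separate sample, and gave 4 without the block. The number of all 47997 probes that were higher fell too. It was 2321 in the main fit, 1281 without CSE1, 1412 without OS4+5, 1965 without OS6 and 1534 without CSE2. With the block it was 2105, and 2645 for the same arrays without it.

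**Figure D1:**
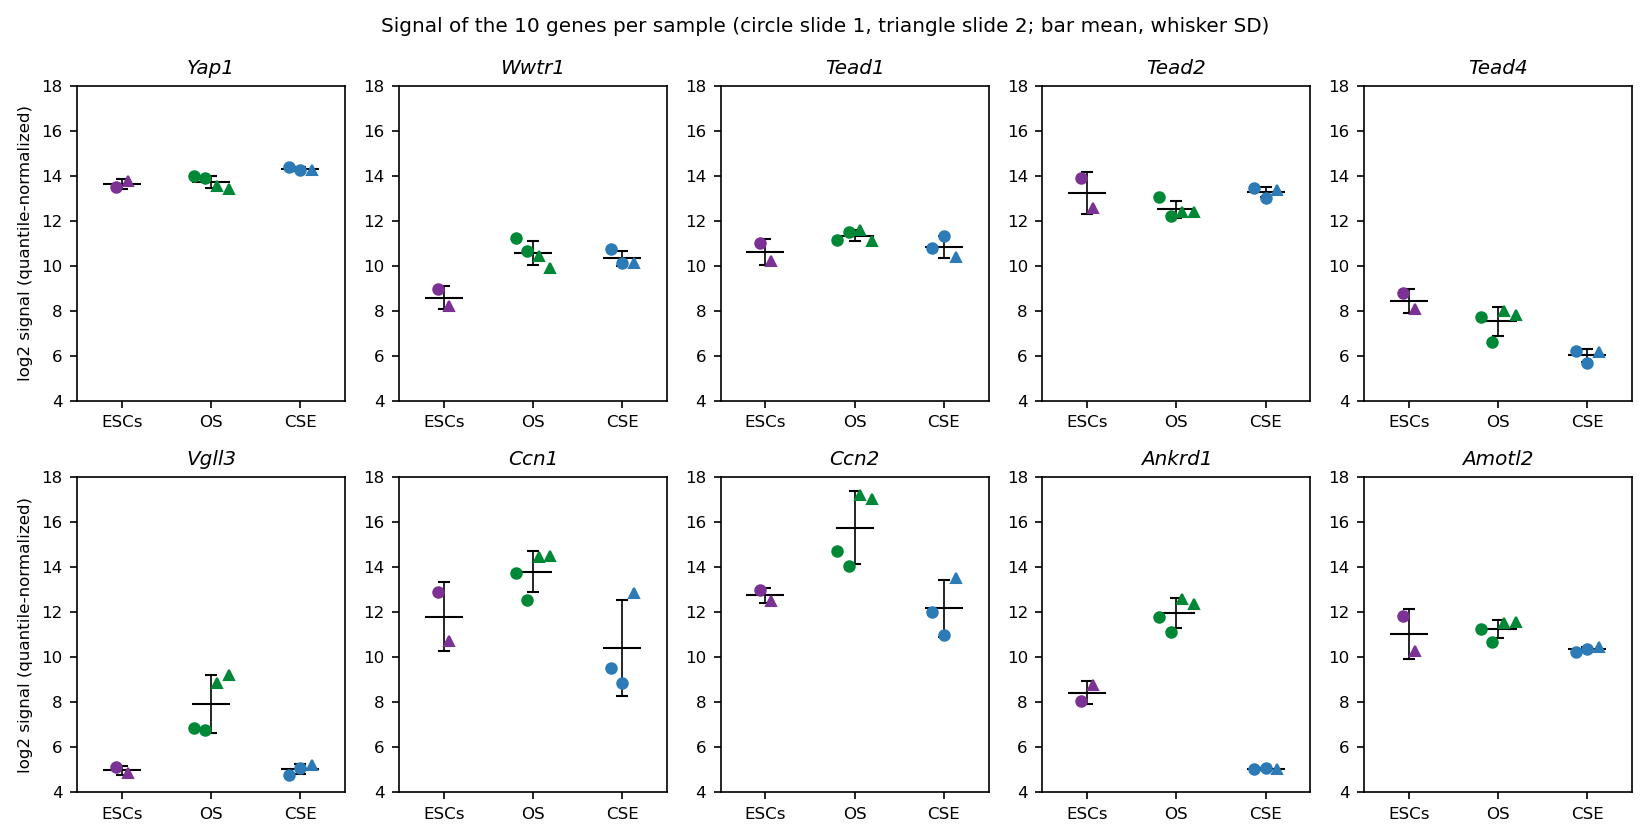
Log2 signal of the 10 genes after quantile normalization (y axis) in each ESC, otosphere (OS) and CSE sample (x axis), with the group mean (bar) and SD (whisker), circles for slide 1 and triangles for slide 2. The 4 otosphere samples sit between 11.13 and 12.61 for Ankrd1 and the 3 CSE samples between 5.02 and 5.07, whereas the groups lie close together for Yap1. Signals of different probes are not on a common scale and are compared only within a gene.

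The transcript of Yap1, the pathway's central coactivator, was high in all groups and varied little. Its log2 signal was 14.42, 14.28 and 14.26 in CSE1 to CSE3, 13.99, 13.91, 13.56 and 13.43 in OS1+2, OS3, OS4+5 and OS6, and 13.50 and 13.79 in ES1 and ES2. All otosphere samples thus lay below all CSE samples, and the otosphere and ESC samples overlapped. The otosphere mean stood at -0.60 relative to CSE (SE 0.185, limma adjusted p = 0.0788), which did not pass the threshold with the duplicate arrays averaged and did with every array as a separate sample (-0.58, adjusted p = 0.0342). CSE exceeded ESCs by 0.68 (adjusted p = 0.0482), a call that was lost in 12 of 21 alternatives and whose sign turned when the processed signal was scaled to its 75th percentile (-0.32).

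Wwtr1 encodes TAZ, the paralog of YAP. Its signals were 11.23, 10.65, 10.45 and 9.93 in the otosphere samples, 10.74, 10.15 and 10.15 in CSE, and 8.97 and 8.23 in ESCs. The otosphere and CSE samples overlapped, and both groups lay entirely above the ESCs. Otospheres and CSE differed by 0.22 (95% interval -0.52 to 0.96, adjusted p = 0.821). Both were higher than ESCs, otospheres by 1.97 (SE 0.370, adjusted p = 0.00392) and CSE by 1.75 (SE 0.390, adjusted p = 0.00898), and the latter call was lost without ES2 (1.38, adjusted p = 0.07). So of the coactivators, TAZ and not YAP was called between otospheres and ESCs, while the difference between these 2 genes was not tested.

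The TEAD genes encode the DNA-binding partners of YAP and TAZ, and only Tead4 passed the threshold between otospheres and CSE. Tead4 signals were 7.74, 6.60, 7.98 and 7.83 in otospheres, 6.22, 5.69 and 6.19 in CSE, and 8.81 and 8.07 in ESCs. CSE was lowest and ESCs were highest, with no overlap between neighbouring groups, and OS3 stood nearer to CSE than the other otosphere samples. The excess of otospheres over CSE was 1.51 (SE 0.353, adjusted p = 0.0268). The call was lost (adjusted p = 0.0642 to 0.092) when any otosphere sample other than OS3 or any CSE sample was left out, with values from 1.34 to 1.60. CSE was lower than ESCs, at -2.41 (SE 0.422, adjusted p = 0.0027), and otospheres differed from ESCs by -0.90 (adjusted p = 0.136).

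The main Tead1 probe gave 11.17, 11.49, 11.61 and 11.12 in otospheres, 10.79, 11.34 and 10.40 in CSE, and 11.02 and 10.22 in ESCs. CSE2 lay within the range of the otospheres, and the difference of 0.51 did not pass the test (adjusted p = 0.358). The other probes of the gene differed between otospheres and CSE by 0.48 (adjusted p = 0.272) and 0.84 (adjusted p = 0.0883) in the same direction, but against ESCs they disagreed in sign with the main probe for CSE, at -0.54 and -0.50 against 0.22. The main Tead2 probe gave 13.07, 12.21, 12.38 and 12.39 in otospheres, 13.46, 13.03 and 13.37 in CSE, and 13.89 and 12.57 in ESCs. OS1+2 lay within the CSE range by a small margin, and the other otosphere samples lay below it. Otospheres were at -0.78 relative to CSE (adjusted p = 0.207), with -0.73 (adjusted p = 0.138) for the other probe.

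Vgll3, a vestigial-like protein that binds TEADs without being YAP or TAZ, was detected on otosphere arrays only. Its signal was 6.86, 6.79, 8.88 and 9.23 in OS1+2, OS3, OS4+5 and OS6, and the probe was well above background on all 6 otosphere arrays. In CSE (4.78, 5.10 and 5.24) and ESCs (5.12 and 4.84) no array had the probe well above background. Where a group was not measurable, the fold is given as an approximate bound. It is taken against the lowest signal among probes well above background on each of its arrays. That level was raised to the signal of the probe itself where necessary. Probes not well above background can lie higher, such as Sox9 in ESCs (5.47 and 6.20) and Vgll2 in CSE3 (5.37), so the bounds are not strict. By this approximate bound, Vgll3 was 7.37-fold higher in otospheres than in CSE and 5.88-fold higher than in ESCs. The fitted differences had limma adjusted p = 0.0155 and 0.0106. Such bounds depend on the offset added in the background correction (16 here), and were 13.3-fold and 8.76-fold with an offset of 0 and 4.29-fold and 3.82-fold with 50, alternatives chosen after seeing the data. The first call was lost without CSE1 (adjusted p = 0.0703) or CSE3 (adjusted p = 0.0527), and the second without ES2 (adjusted p = 0.0644). The otospheres on slide 2 had higher values than those on slide 1, and the fitted excess over CSE, which is no bound, was 1.89 within slide 1 and 3.81 within slide 2.

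Ankrd1, a nuclear and sarcomeric ankyrin repeat protein, showed the largest difference among the 10 genes. Its signal was 11.78, 11.13, 12.61 and 12.37 in otospheres and 8.07 and 8.79 in ESCs, while in CSE it was 5.02, 5.07 and 5.02, with no array well above background. The 3 groups did not overlap. By the same approximate bound, Ankrd1 was 115-fold higher in otospheres than in CSE, the 11th largest fitted rise of 18565 genes. In ESCs it exceeded CSE 9.88-fold by that bound. The fitted differences had limma adjusted p = 1.99e-05 and 0.000402. With an offset of 0 these bounds were 214-fold and 17.5-fold, and with 50 they were 58.8-fold and 5.52-fold. Otospheres exceeded ESCs by 3.54 on the log2 scale, 11.6-fold (SE 0.392, adjusted p = 0.000252). These calls held in every alternative that gave a test, and within slides the fitted excess of otospheres over CSE was 6.41 and 7.47.

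Ccn2 encodes connective tissue growth factor, a secreted matrix-associated protein. Its signals were 14.72, 14.08, 17.23 and 17.06 in OS1+2, OS3, OS4+5 and OS6, 12.03, 11.01 and 13.53 in CSE, and 12.997 and 12.53 in ESCs. The otospheres lay above both other groups in every sample, OS4+5 and OS6 well above OS1+2 and OS3, and CSE3 stood above the other CSE samples. Otospheres exceeded CSE by 3.58 (SE 0.867, adjusted p = 0.0305), which is 12-fold. Without OS4+5, OS6, CSE1 or CSE2 the difference was 2.99 to 3.50 and no longer passed (adjusted p = 0.0671 to 0.109). The excess over ESCs was 3.01 (SE 0.983, adjusted p = 0.0499), at the edge of the threshold, and was lost in 10 of 21 alternatives. CSE and ESCs differed by -0.57 (adjusted p = 0.744).

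Ccn1, the paralog of Ccn2 and likewise secreted, gave 13.76, 12.55, 14.48 and 14.50 in otospheres, 9.55, 8.88 and 12.85 in CSE, and 12.89 and 10.73 in ESCs. CSE3 exceeded OS3, so the groups overlapped through 1 sample of each. The mean difference between otospheres and CSE was 3.40 (SE 0.968), similar in size to that of Ccn2, and did not pass the test (adjusted p = 0.0583). Without CSE3 it was 4.61 (adjusted p = 0.0103), and with every array as a separate sample 3.49 (adjusted p = 0.0128). The difference from ESCs was 2.01 (adjusted p = 0.222), with the 2 ESC lines far apart.

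CSE3 also stood apart in immediate early genes, which respond within minutes to handling and growth factors. The mean log2 signal of 7 of them was 12.94 in CSE3, 9.24 in CSE1 and 8.55 in CSE2, against 10.06 to 11.36 in otospheres and 9.02 to 9.21 in ESCs. Fos was at 6.91, 5.57 and 13.84 in CSE1 to CSE3 and Fosb at 6.93, 6.03 and 13.44. Ankrd1 was as low in CSE3 as in the other CSE samples, whereas Ccn1 and Ccn2 were highest there. The part of these genes in the values of Ccn1 and Ccn2 was not tested.

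**Figure D2:**
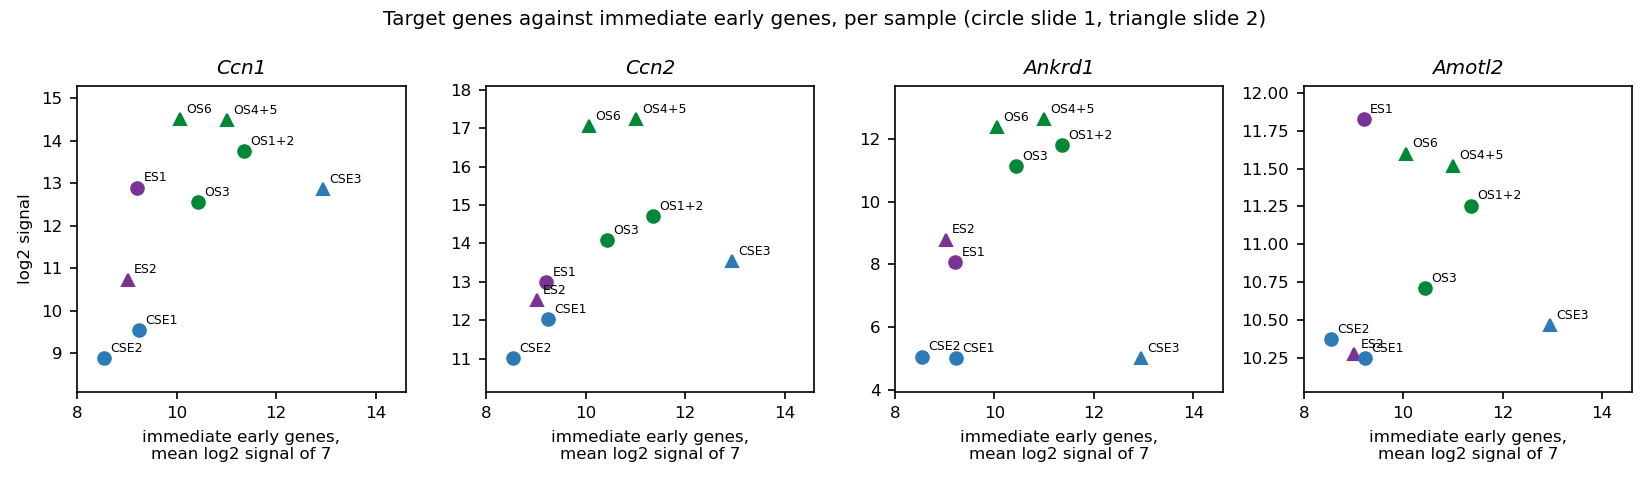
Log2 signal of the 4 target genes (y axis, scaled per gene) against the mean log2 signal of 7 immediate early genes (x axis) in each of the 9 samples, in purple for ESCs, green for otospheres and blue for CSE, with circles for slide 1 and triangles for slide 2. CSE3 lies to the right at 12.94, with Ccn1 and Ccn2 above those of CSE1 and CSE2 and Ankrd1 at their level.

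Amotl2, an angiomotin-like scaffold that binds YAP and is also one of its targets, was close to constant within CSE, at 10.25, 10.37 and 10.46. The otospheres had 11.26, 10.71, 11.52 and 11.60, all above CSE, and ESCs 11.82 and 10.27, which spanned nearly the whole range of the other samples. The difference between otospheres and CSE was 0.91 (SE 0.359, adjusted p = 0.169) and did not pass. It passed without ES1 or without ES2 (adjusted p = 0.0407 in both cases), and the 3 groups share an estimate of the spread.

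Compared with ESCs, 4 of the 10 genes were higher in otospheres (Wwtr1, Vgll3, Ccn2 and Ankrd1), beside 18.4% of all genes. At limma's unadjusted p under 0.05, 5 members were higher, these 4 and Tead1, with the share of all genes not computed. By limma no member was lower (20.4% of all genes), at an unadjusted p under 0.05 likewise 0, and without ES2 Tead2 was lower (-1.38, adjusted p = 0.0232), which also left 2 members higher. Every otosphere sample lay above both ESC samples for 5 members, these 4 and Tead1 (25.9% of all genes), and below for 1, Tead4 (28.9% of all genes), and the median difference was 1.35, against -0.00593 over all genes. Vgll3, Ccn2 and Ankrd1 were thus higher in otospheres than in both other groups, 3 genes in all, but the comparisons share the otosphere samples. Between CSE and ESCs, 2 members were higher in CSE (Yap1 and Wwtr1, beside 20.9% of all genes) and 2 were lower (Tead4 and Ankrd1, beside 20% of all genes). For 2 members all CSE samples were above both ESC samples (31.6% of all genes) and for 2 below (31.7%). The count of members higher in CSE was 0 without ES2, 2 without OS6 and 1 when any other sample was left out. Over the 3 groups together, 5 members differed by limma's F-test (48.7% of all genes) and 4 by the methods' test without moderation, in which Ccn2 was the gene that no longer passed.

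Among otospheres, the samples on slide 2 stood above those on slide 1 for Tead4, Vgll3, Ccn1, Ccn2, Ankrd1 and Amotl2. For Yap1 and Wwtr1 they stood below, and for Tead1 and Tead2 the slides overlapped. Within slide 1 and slide 2, otospheres minus CSE was 2.88 and 3.62 for Ccn2, 3.94 and 1.64 for Ccn1, 1.22 and 1.72 for Tead4, 0.67 and 1.10 for Amotl2 and -0.40 and -0.77 for Yap1. These differences thus kept their direction on both slides, with CSE3 the sole CSE sample on slide 2. Against ESCs, the excess of otospheres was 1.97 and 1.96 for Wwtr1 and 3.38 and 3.70 for Ankrd1, close to equal on both slides, but 1.40 and 4.62 for Ccn2 and 1.71 and 4.21 (fitted) for Vgll3. For Ccn1 it was 0.26 and 3.76, and for Amotl2 the sign differed between slides, at -0.84 and 1.29. With the slide as a block in the fit, 4 members were higher in otospheres than in CSE, Tead4 by 1.47 (adjusted p = 0.0388), Ccn2 by 3.29 (adjusted p = 0.0102), and Vgll3 and Ankrd1 by fitted values of 2.72 and 6.83 (adjusted p = 0.00964 and 2.89e-05).

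**Figure D3:**
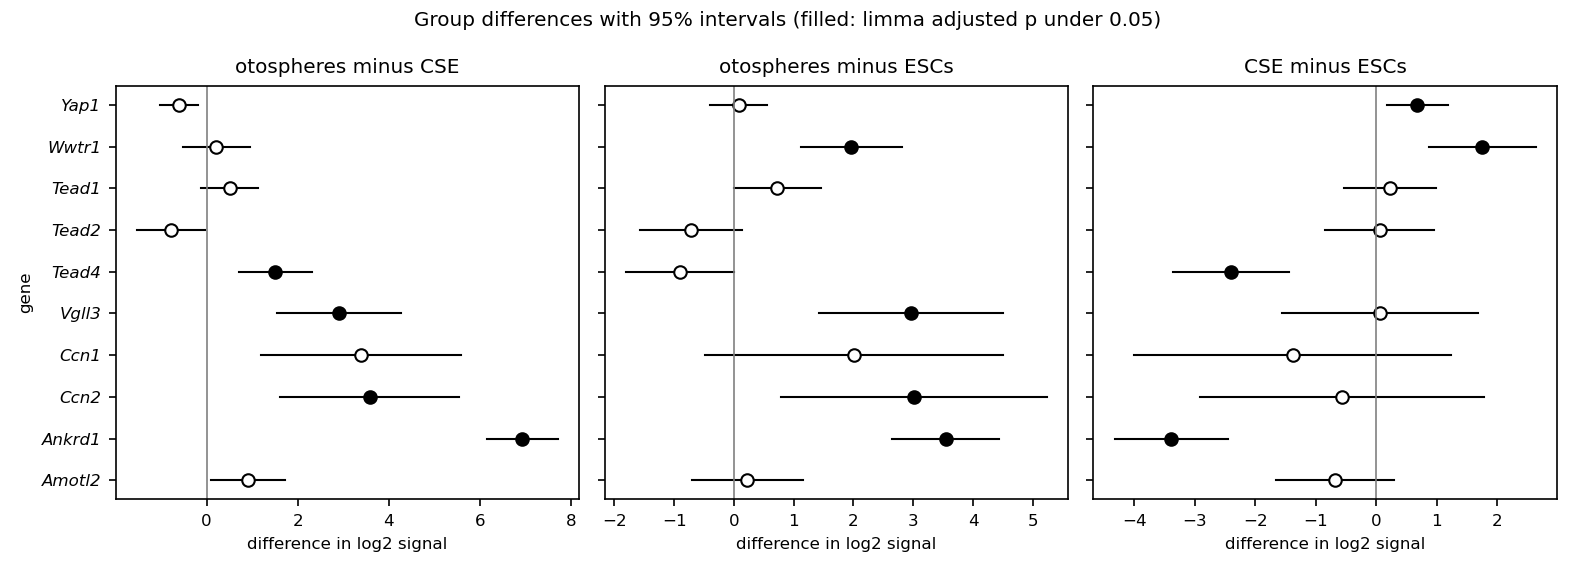
Differences in log2 signal between groups (x axis, each panel with its own range) with 95% intervals for the main probe of each gene (y axis), for otospheres minus CSE, otospheres minus ESCs and CSE minus ESCs. Filled points passed limma's adjusted p of 0.05. Ankrd1 stands at 6.94 relative to CSE, though its CSE level and the CSE and ESC levels of Vgll3 are not measurable, so that these points are fitted values and not bounds.

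Of 21 other targets of YAP and TAZ, 8 were higher in otospheres than in CSE (7.17% of all genes were), 1 was lower (10.3% of all genes) and 12 did not pass, with a median difference of 0.245. The number higher ranged from 5, without CSE1 or CSE3, to 9. Over all probes it fell from 2321 to 1281 without CSE1 and 1377 without CSE3. F3, the tissue factor that starts blood coagulation, had 14.69, 14.77, 14.92 and 14.66 in otospheres and 9.93, 9.51 and 10.06 in CSE. These groups were tight and far apart, at a difference of 4.93 (SE 0.230, adjusted p = 1.44e-05). Thbs1, which encodes the matricellular protein thrombospondin 1, was higher by 3.53 (SE 0.603, adjusted p = 0.00631), and like Ccn2 it was highest in OS4+5 and OS6 (16.12 and 15.51, against 14.54 and 13.58). Gadd45a, a gene of the response to DNA damage, was higher by 3.02 (SE 0.256, adjusted p = 0.000234) and at a like level in ESCs (difference from otospheres 0.22, adjusted p = 0.642). Tgm2, which encodes the crosslinking enzyme transglutaminase 2, was higher by 2.82 (SE 0.597, adjusted p = 0.0172), with 14.27, 15.08, 13.65 and 13.12 in otospheres and 11.45, 10.77 and 11.41 in CSE. Igfbp3, an IGF-binding protein, was the 1 gene of the list that was lower in otospheres (-2.05, SE 0.508, adjusted p = 0.0338), and was named after its value was seen. Against ESCs, 12 of the 21 were higher in otospheres and 1 lower, with a median of 1.94, beside 18.4% and 20.4% of all genes. Between CSE and ESCs 8 were higher in CSE and 5 lower, beside 20.9% and 20% of all genes.

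Of 28 other genes of the pathway itself, 4 were higher in otospheres than in CSE (7.17% of all genes were), 1 was lower (10.3% of all genes) and 23 did not pass, and the median difference was 0.30. Without CSE3 the number higher was 1, while over all probes it fell from 2321 to 1377. Lats2, a kinase that phosphorylates YAP and is itself induced by it, had 10.54, 10.49, 10.73 and 10.57 in otospheres, 10.17, 9.36 and 9.52 in CSE, and 9.06 and 7.34 in ESCs. All otosphere samples lay above all others, with a difference from CSE of 0.90 that did not pass (adjusted p = 0.194) and one from ESCs of 2.38 that did (SE 0.425, adjusted p = 0.003). Nf2, which encodes the upstream activator merlin, differed from CSE by 0.34 (adjusted p = 0.353). The TEAD genes outside the 10 were represented by Tead3, at 0.43 against CSE (adjusted p = 0.31) and 1.48 against ESCs (adjusted p = 0.00223). Vgll4, which competes with YAP for TEADs, was at -1.38 against CSE (adjusted p = 0.179), and CSE exceeded ESCs by 3.02 (adjusted p = 0.00848).

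Fat4, a giant protocadherin at cell contacts, was the 1 gene that was lower. It had 6.36, 5.82, 6.67 and 5.56 in otospheres, well above background on 5 of the 6 arrays, and 9.10, 7.88 and 8.49 in CSE, a difference of -2.39 (SE 0.350, adjusted p = 0.00302). The values of its ligand Dchs1, named after they were seen, were 9.75, 9.62, 8.86 and 6.59 in otospheres and 11.20, 10.67 and 11.21 in CSE, without overlap, and the difference of -2.32 did not pass (adjusted p = 0.0629). Ptpn14, a phosphatase that binds YAP, was higher in otospheres by 1.90 (SE 0.424, adjusted p = 0.0222). The remaining genes that were higher, named after their values were seen, were Amotl1, a second angiomotin-like scaffold (1.75, adjusted p = 0.0124), Ajuba, a LIM protein that restrains LATS (1.44, adjusted p = 0.0105), and Mob1a, a LATS coactivator (1.05, adjusted p = 0.0156). Against ESCs, 13 of the 28 were higher in otospheres and 2 lower, with a median of 0.89, beside 18.4% and 20.4% of all genes. The 13 became 7 without ES1, 6 without OS4+5 and 7 with scaling to the 75th percentile, which shifted the median of all probes between otospheres and ESCs from -0.03 to -0.31.

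**Figure D4:**
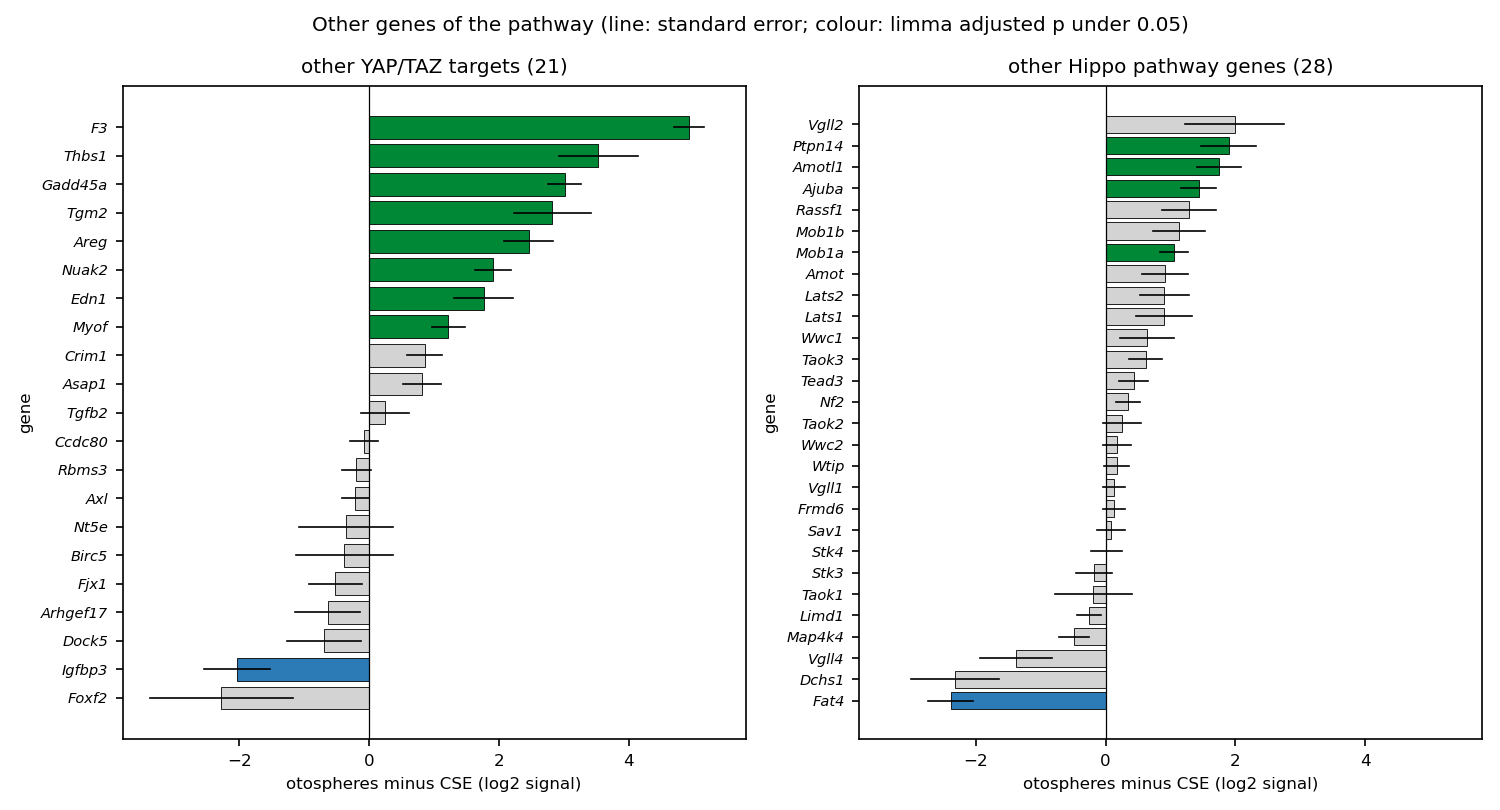
Otospheres minus CSE in log2 signal (x axis) for 21 other YAP/TAZ targets and 28 other Hippo pathway genes (y axis), with the standard error as a line. Bars in green (higher) and blue (lower) passed limma's adjusted p of 0.05, 8 and 1 among the targets and 4 and 1 among the pathway genes.

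Markers of other cell types went in different directions between otospheres and CSE. Over 7 smooth muscle and pericyte genes the mean log2 signal was 9.14 to 11.20 in otospheres, 7.33 to 7.77 in CSE and 8.55 to 9.66 in ESCs. Of the 7 genes, 4 were higher in otospheres than in CSE (Acta2, Tagln, Cnn1 and Rgs5, beside 7.17% of all genes) and 1 was lower (Des, beside 10.3%). Acta2, Tagln and Cnn1 were also bright in ESCs, with means of 11.89, 13.87 and 11.79, against 12.64, 16.07 and 11.16 in otospheres. They did not pass between otospheres and ESCs (limma adjusted p = 0.727, 0.192 and 0.769), whereas Rgs5 was dim in ESCs (5.16). The defining gene Myh11 was well above background on 0 of 3 CSE arrays and 2 of 6 otosphere arrays. As with Ccn2 and Vgll3, the mean over the 7 genes was higher in OS4+5 and OS6 (11.20 and 11.07) than in OS1+2 and OS3 (9.70 and 9.14). Over 10 mesenchymal genes the mean was 12.20 to 12.76 in CSE and 8.72 to 12.67 in otospheres. It was lowest in OS6, where Ccn2 and Vgll3 were among their highest values. Of the 10 genes, 1 was higher in otospheres than in CSE (Thy1, beside 7.17% of all genes), 1 was lower (Col1a1, beside 10.3%) and 8 did not pass. In OS6, Dcn (15.51) and Lum (15.05) were near their CSE means (15.43 and 15.38). Over 7 endothelial genes it was 9.70 to 10.30 in CSE and 7.02 to 7.90 in otospheres. The part of these cell types in the results was not tested.

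Across the 9 samples, the targets and Vgll3 varied together, as a description of samples that share groups and slides. Pearson's r was 0.95 between Vgll3 and Ccn2, 0.90 between Ccn1 and Ccn2, 0.84 between Ankrd1 and Ccn2 and 0.85 between Ankrd1 and Vgll3. The remaining pairs were lower. Ccn1 stood at 0.776 with Vgll3 and 0.778 with Ankrd1, and Amotl2 ranged from 0.645 (Vgll3) to 0.793 (Ccn1). Yap1 ran opposite to its targets, at -0.82 with Amotl2, -0.75 with Ankrd1 and -0.68 with Ccn2, and at -0.87 with Tead4. Wwtr1 was hardly related to the 4 targets, with r from 0.01 (Amotl2) to 0.25 (Ccn2). Among all other named genes, those with the most similar patterns were Lpar1, a lysophosphatidic acid receptor (r = 0.98), and Scn2b (0.97) for Yap1, Fam149a (0.99) and the pathway adaptor Sav1 (0.98) for Wwtr1, Akp3 (0.97) and Uhrf1bp1l (0.95) for Tead1, Cfap20dc (0.98) and Adad1 (0.97) for Tead2, and Cox5a (0.98) and Zfp365 (0.98) for Tead4. The signals of Akp3 and Adad1 lay near background, with group means of 5.03 to 5.33 and 5.58 to 5.95 and their probes well above background on 2 and 7 of the 11 arrays. For Vgll3 they were Atp6v0e (0.99) and Ezr (0.99), for Ccn1 Borcs8 (0.98) and Atf3 (0.97), for Ccn2 Gadd45g (0.98) and Lmna (0.98), for Ankrd1 Spryd7 (0.99) and Lgals3 (0.99), and for Amotl2 Ssu72 (0.96) and Dusp14 (0.96).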

How the data were processed

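Otospheres, CSE and ESCs were compared on SurePrint G3 Mouse 8x60K arrays, labelled from 50 or 100 ng of total RNA. The deposited scanner files give, for every spot, a median intensity and a local background, made with Feature Extraction 10.7.3.1 without scaling across arrays, and a processed intensity from which the software had subtracted background. A deposited table holds the authors' log2 values after their own correction, quantile normalization and removal of dim probes, and was used as an alternative.

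Background was subtracted from the median intensities by normexp (offset 16, limma 3.58.1, R 4.3.3), and log2 values of the 11 arrays were brought to a common distribution by quantile normalization. Control spots and spots flagged as outliers took part in both steps and were left out afterwards. Of 55681 probes, 47997 exceeded the 95th percentile of 308 negative controls by at least 10% on 2 or more arrays and were kept. Gene names came from the accession of each probe through RefSeq. A gene's main probe was the brightest one. A limma model with the 3 group means (lmFit and eBayes) was fitted over all kept probes, with Benjamini-Hochberg adjustment and a threshold of 0.05, and was tested on simulated data. Differences are log2 values. Replicates are separate samples by their labels. The paper's methods mention technical duplication but do not say which arrays it covers. Nothing else says how far the preparations were independent beyond the pooled animals, so the p-values measure the spread between these samples.

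The 10 members and the gene lists were chosen with earlier results of these data known. 1 gene of the list of targets is not reported here and was left out of its counts. From the remaining 21 targets and 28 pathway genes, those among the 4 largest differences of a list that passed the threshold were named, and Lats2, Nf2, Vgll4 and Tead3 in any case, with the 2 genes of most similar pattern (highest r over the 9 samples) for each member. A list of 5 macrophage genes had 4 tested. Of these, 1 was higher in otospheres than in CSE (Cd14, beside 7.17% of all genes) and 2 were lower (Csf1r and Adgre1, beside 10.3%). Alternatives were the offset (0 and 50), scaling to the 75th percentile, the authors' log2 table, another or no filter on dim probes, the other probes, the slide as a block, the replicate number as a block (with the same arrays without it), values within slides, every array as a sample, the methods' test and leaving out each sample.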

Additional observations from a re-analysis of the deposited data

How the results depend on the processing

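Over 30 results (10 genes in 3 comparisons), 639 values were recomputed, of which 541 kept their direction and their side of the threshold or moved by less than 1 SD, 38 lost the call, 7 gained it, 32 moved and 21 turned in sign. Those that moved include 7 of the 60 values within slides that turned in sign, all of comparisons that did not pass. CSE minus ESCs was -3.68 and 2.12 for Ccn1 and -1.48 and 1.01 for Ccn2 within slides 1 and 2, and the others were Tead2 (-0.643) and Vgll3 (-0.178) on slide 1 and Amotl2 (0.19) on slide 2 between CSE and ESCs, and Amotl2 (-0.843) on slide 1 and Yap1 (-0.294) on slide 2 between otospheres and ESCs. The count of members higher in otospheres than in CSE (4) ranged from 1 to 5 when samples were left out, and that of members lower (0) rose to 1 when each array counted separately. Members higher in otospheres than in ESCs (4) ranged from 2 to 4 and those lower (0) from 0 to 1, members higher in CSE than in ESCs (2) from 0 to 2 and those lower (2) from 2 to 3. Members higher in CSE than in ESCs numbered 1 with an offset of 0, with scaling to the 75th percentile, with the authors' log2 table and with the slide as a block. Other pathway genes higher in otospheres than in ESCs (13) ranged from 6 to 13 and were 7 with scaling, those higher than in CSE (4) ranged from 1 to 6, and other targets higher than in CSE (8) from 5 to 9 and higher than in ESCs (12) from 10 to 12. The counts over these 2 lists were recomputed as alternatives chosen after seeing the data.

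The fit with the replicate number as a block took the arrays numbered 1 to 3 alone, each as a separate sample, so that OS4 to OS6 were left out. In it, 2 members were higher in otospheres than in CSE (Ccn2 at 2.32, adjusted p = 0.0646, and Tead4 at 1.33, adjusted p = 0.0741, did not pass), and 1 was higher in CSE than in ESCs. The same arrays without the block, an alternative chosen after seeing the data, gave 4 (Ccn2 at 2.32, adjusted p = 0.0326, and Tead4 at 1.33, adjusted p = 0.0488) and 2. The numbers were not shown to pair the samples, since deviations of same-numbered otosphere and CSE arrays correlated at 0.37, -0.57 and -0.36.

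The other values that turned in sign were those of comparisons that did not pass, except Yap1 between CSE and ESCs. With scaling to the 75th percentile, Yap1 stood at -0.631 (otospheres minus ESCs) and -0.319 (CSE minus ESCs), Tead1 at -0.181 and Tead2 at -0.851 (CSE minus ESCs) and Amotl2 at -0.0791 (otospheres minus ESCs). With the slide as a block, Tead2 stood at -0.00927 (CSE minus ESCs). The other Tead1 probes gave -0.0516 (otospheres minus ESCs) and -0.536 and -0.501 (CSE minus ESCs). With each sample left out in turn, otospheres minus ESCs ranged from -0.0648 to 0.226 for Yap1 and from -0.554 to 0.997 for Amotl2, and otospheres minus CSE from -0.00483 to 0.429 for Wwtr1. CSE minus ESCs ranged from -0.18 to 0.622 for Tead1, from -0.604 to 0.714 for Tead2, from -0.0791 to 0.196 for Vgll3, from -1.24 to 0.0184 for Ccn2 and from -1.46 to 0.0877 for Amotl2. The causes were not tested. Signal near background limits Vgll3, Akp3, Adad1 and, in CSE, Ankrd1.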
